A study of Oryza sativa Indica Group with 6 samples.

Results

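The 10 genes described here encode enzymes, transporters, and secreted proteins of the rice pollen wall and anther cuticle, or other products of the tapetum. They were listed by locus ID, but with earlier results of these data known. They are 10 of the 55982 locus IDs with 1 FPKM value (fragments scaled to exon length and library size) in each library. RNA came from 0- to 4-cm panicles of the wild type, the *Oryza rufipogon* introgression line YIL100 in the *indica* background Teqing, and of its EMS-induced mutant *ssh1* (labelled SSH1-/-). Both genotypes were field grown and share the *SH4* allele of wild rice. The *ssh1* mutant is a single mutagenized line with a point mutation in an intron of *SNB* (LOC_Os07g13170), an APETALA2-like transcription factor gene, so that other EMS mutations of that line cannot be told apart from it. Each genotype had 3 biological replicates with 5 plants pooled in each, which gave 6 libraries.

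The tapetum is the innermost cell layer of the anther wall. It makes fatty acid derivatives that become sporopollenin, the polymer of the outer pollen wall (exine), and secretes them with lipid transfer proteins and other proteins toward the pollen surface, while wax and cutin monomers form the cuticle on the outside of the anther. The tapetum later degenerates by programmed cell death. Most genes of this program are known to be active from meiosis onward, and panicles of this length hold spikelets of several stages.

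The libraries were checked first. *SNB* had 16.9 to 20.9 FPKM in the wild type and 7.44 to 8.86 FPKM in *ssh1*, without overlap. *OsMADS1*, a spikelet identity gene, had 198 to 304 FPKM in the wild type and 157 to 176 FPKM in *ssh1*. FPKM values are not counts, but low values were spaced in steps, and from this spacing the depth relative to wild-type replicate 1 ranged from -0.24 (*ssh1* replicate 1) to 0.06 (*ssh1* replicate 3) on the log2 scale. Genotypes were compared on log2(FPKM + 1) in limma for the 18537 genes that averaged 1 FPKM or more in the 6 libraries. To be called, a gene needed a change by a factor of 2 or more and a Benjamini-Hochberg adjusted p below 0.001. Over the tested genes, *ssh1* differed from the wild type by a median log2 fold change of -0.14, and single changes are to be read relative to that shift. Adding 1 FPKM understates the change of low genes.

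Of the 10 genes, *WDA1* and *ABCG26* were well expressed in young panicles and had lower levels in *ssh1*. The cytochrome P450 genes *CYP703A3* and *CYP704B2* were close to 1 FPKM, and the other 6 genes had means below 1 FPKM over the 6 libraries. Accordingly 4 of the 10 genes passed the filter and were tested. Among the 4, *WDA1* was called lower in *ssh1* and no gene was called higher, while 1.92% of all tested genes were called lower and 3.19% higher. At an adjusted p below 0.05 with the same fold change, *CYP704B2* was called lower as well, beside 5.95% of all tested genes lower and 7.07% higher. It was tested only through its wild-type mean of 1.91 FPKM, against 0.434 FPKM in *ssh1*. *CP1*, with higher levels in *ssh1*, averaged 0.526 FPKM over the 6 libraries, was under the filter, and was not open to a call. *OsC6* was at 0 in all libraries. Among the other 9 genes, all *ssh1* values lay below all wild-type values in 5 and above them in 1, *CP1*. Of the 30210 locus IDs above 0 in at least 1 library, 27.4% had all *ssh1* values below and 15.6% above.

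**Figure D1:**
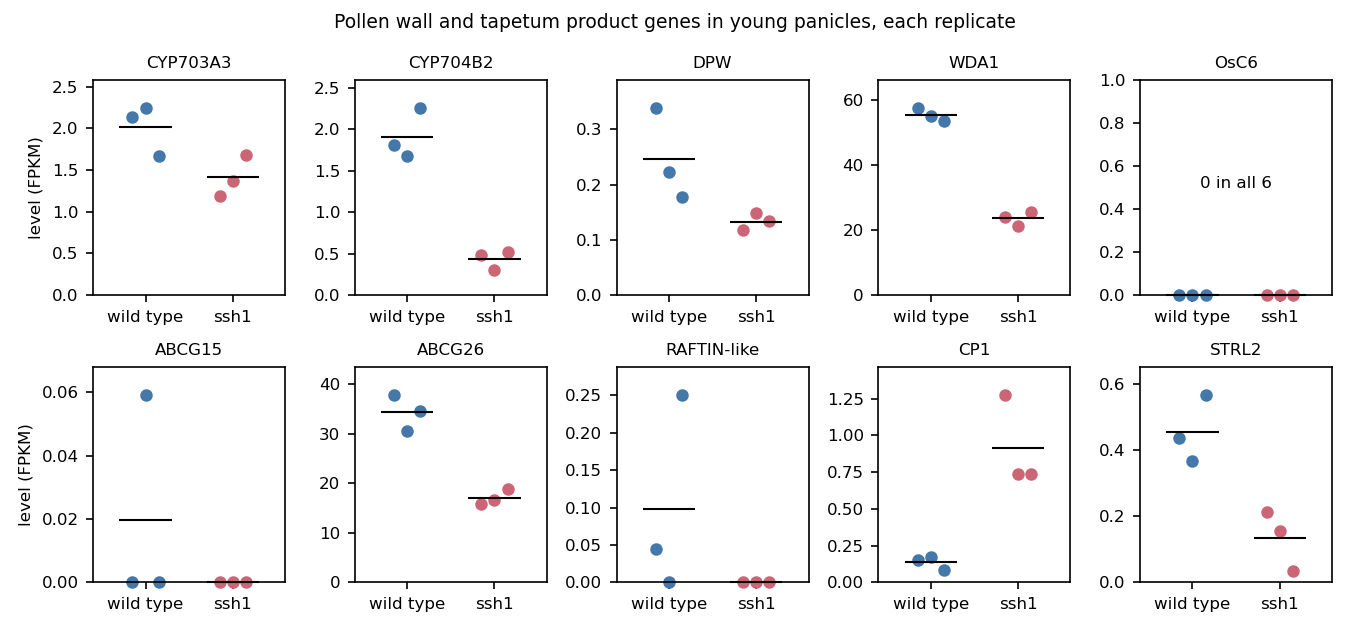
Level in FPKM (vertical axes, each starting at 0, with a range of its own) of the 10 genes in the 3 wild-type replicates (blue) and the 3 *ssh1* replicates (red), with replicates 1 to 3 from left to right and the group mean as a line. *WDA1* and *ABCG26* stand above the other genes in level, and *CP1* is the gene whose *ssh1* points all lie above those of the wild type.

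*WDA1* (LOC_Os10g33250, chromosome 10) takes part in the synthesis of very-long-chain wax of the anther surface. It had the highest level of the 10 genes, with a mean over the 6 libraries of 39.5 FPKM that was above the mean of 83.3% of the tested genes. The wild-type replicates 1, 2, and 3 were at 57.5, 55.1, and 53.6 FPKM, and the *ssh1* replicates were at 24.1, 21.3, and 25.6 FPKM. The groups were far apart, since the highest *ssh1* value was less than the lowest wild-type value by more than the spread within either group. The wild type averaged 55.4 ± 1.97 FPKM (SD, n = 3) and *ssh1* 23.7 ± 2.20 FPKM (SD, n = 3), and the former was 2.34 times as high. In limma, *WDA1* fell with a log2 fold change of -1.20 (95% confidence interval -1.40 to -0.99, standard error 0.08, adjusted p = 0.000283). An exact permutation test over the 6 libraries gave p = 0.1 (two-sided), the smallest p that 3 against 3 allow. After median-of-ratios scaling, which moved the median of the tested genes to -0.01, the log2 fold change of *WDA1* was -1.06 (limma adjusted p = 0.00021) and the gene was still called lower, beside 1.49% of the genes tested after scaling.

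The call of *WDA1* was lost in several smaller fits, although its size was similar in them. When each library was omitted, log2 fold changes of -1.25 to -1.12 were obtained, with limma adjusted p-values of 0.000359 to 0.00332. It rose above 0.001 without wild-type replicate 1 (0.00332), 2 (0.00279), or 3 (0.0027), and without *ssh1* replicate 1 (0.0016). In limma with a replicate block the adjusted p was 0.00531, in a fit that called 0 of all genes, with 2541 at a fold change of 2 and an unadjusted p below 0.05.

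*DPW* (LOC_Os03g07140, chromosome 3) was low in both genotypes. It encodes the plastid reductase that turns fatty acyl-carrier protein into fatty alcohol for the anther cuticle and sporopollenin. The wild-type replicates were at 0.338, 0.223, and 0.177 FPKM and the *ssh1* replicates at 0.117, 0.148, and 0.134 FPKM. All *ssh1* values were lower, yet the lowest wild-type replicate was closer to *ssh1* than to the highest of its own group. The gene was under the filter and was not tested across genes. An exact permutation test of the difference of -0.14 in mean log2(FPKM + 1) gave p = 0.1 (two-sided), the smallest possible.

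The 2 P450 enzymes hydroxylate fatty acids for sporopollenin and cutin, *CYP703A3* within the chain and *CYP704B2* at its end. *CYP704B2* (LOC_Os03g07250, chromosome 3) was at 1.80, 1.67, and 2.25 FPKM in the wild type and at 0.485, 0.303, and 0.516 FPKM in *ssh1*. Every *ssh1* replicate was below the lowest wild-type replicate. The group means were 1.91 ± 0.305 FPKM (SD, n = 3) and 0.434 ± 0.115 FPKM (SD, n = 3), and the wild-type mean was 4.40 times as high. This was the widest ratio among the 4 tested genes. The limma log2 fold change on the scale of FPKM + 1 was -1.02 (standard error 0.15, 95% confidence interval -1.38 to -0.65, adjusted p = 0.00309), and with 0.1 in place of 1 FPKM added it was -1.92 (limma adjusted p = 0.00416). The gene passed the filter only through its wild-type level, and without wild-type replicate 3 its mean was under the limit. After median-of-ratios scaling its log2 fold change was -0.95 (limma adjusted p = 0.00415), below a fold change of 2.

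*CYP703A3* (LOC_Os08g03682, chromosome 8) was less clearly different. The wild-type replicates were at 2.14, 2.24, and 1.67 FPKM and the *ssh1* replicates at 1.19, 1.37, and 1.68 FPKM. The groups touched, because *ssh1* replicate 3 reached the level of wild-type replicate 3. The means were 2.02 ± 0.303 FPKM (SD, n = 3) and 1.41 ± 0.246 FPKM (SD, n = 3), with a limma log2 fold change of -0.32 (standard error 0.15, 95% confidence interval -0.67 to 0.03, adjusted p = 0.117). An exact permutation test gave p = 0.2 (two-sided).

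**Figure D2:**
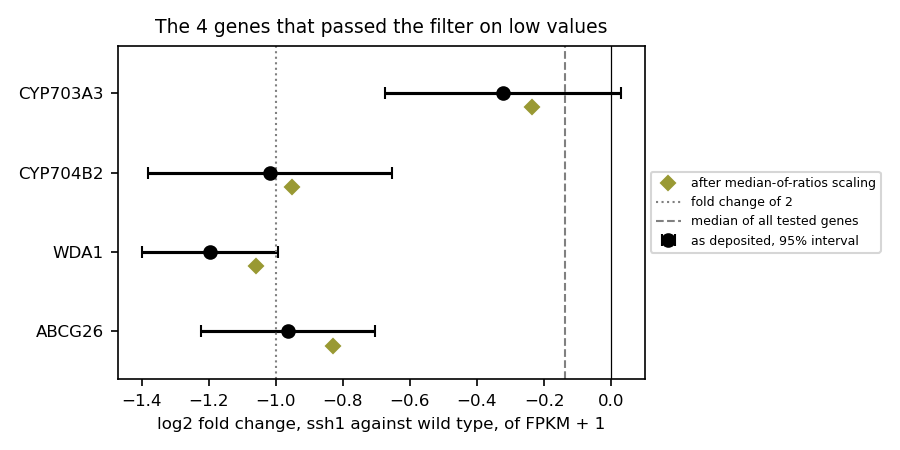
Log2 fold change of FPKM + 1 in *ssh1* against the wild type (horizontal axis) for the 4 genes that passed the filter. Black points with bars are limma estimates with 95% confidence intervals, diamonds are the estimates after median-of-ratios scaling, the dotted line marks a fold change of 2, and the dashed line is the median of all tested genes (-0.14). The interval of *CYP703A3* includes 0 and those of *CYP704B2*, *WDA1*, and *ABCG26* do not.

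Among the genes of lipid export, *ABCG26* (LOC_Os10g35180, chromosome 10), an ATP-binding cassette transporter that moves lipids of the anther cuticle and pollen wall, had 37.8, 30.6, and 34.7 FPKM in the wild type and 15.8, 16.6, and 18.9 FPKM in *ssh1*. The lowest wild-type replicate was well above the highest *ssh1* replicate. The means were 34.4 ± 3.64 FPKM (SD, n = 3) and 17.1 ± 1.64 FPKM (SD, n = 3), a ratio of 2.01 of the wild type to *ssh1*. On the scale of FPKM + 1 the limma log2 fold change was -0.96 (95% confidence interval -1.22 to -0.70, standard error 0.11, adjusted p = 0.00115), so that the gene just missed both thresholds. When the filter was raised to 5 FPKM, the limma adjusted p of *ABCG26* was 0.000874 and the fold change was the same. After median-of-ratios scaling its log2 fold change was -0.83 (limma adjusted p = 0.00184), short of both thresholds. Its mean over the 6 libraries, 25.7 FPKM, was above that of 72.9% of the tested genes.

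The levels of *WDA1* and *ABCG26* were compared within each library. The ratio of *WDA1* to *ABCG26* in FPKM was 1.52, 1.80, and 1.54 in the wild-type replicates and 1.53, 1.28, and 1.35 in the *ssh1* replicates. The ratios of the genotypes overlapped only in that *ssh1* replicate 1 was just above wild-type replicate 1, and the other *ssh1* ratios were below all wild-type ratios. The levels of either gene did not overlap. In bulk panicles, fewer cells that express a gene and less of its RNA per cell cannot be told apart.

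The other 2 genes of lipid export were at the limit of what these libraries hold. *ABCG15* (LOC_Os06g40550, chromosome 6), the transporter known for exporting sporopollenin precursors from the tapetum, was listed at 0.0591 FPKM in wild-type replicate 2 and at 0 in the other 5 libraries. *OsC6* (LOC_Os11g37280, chromosome 11), a lipid transfer protein that is secreted from the tapetum to the pollen wall, was listed at 0 in all 6. No direction can be read from either gene.

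The remaining 3 genes encode other tapetum products. *CP1* (LOC_Os04g57490, chromosome 4), a cysteine protease needed for pollen development, was the one gene with higher levels in *ssh1*. It was at 0.154, 0.173, and 0.0857 FPKM in the wild type and at 1.27, 0.735, and 0.738 FPKM in *ssh1*. All *ssh1* replicates were above all wild-type replicates, and replicate 1 was the highest. The means were 0.138 ± 0.0459 FPKM (SD, n = 3) and 0.915 ± 0.309 FPKM (SD, n = 3), with *ssh1* 6.65 times as high. The gene was under the filter in its mean of 0.526 FPKM. In a fit without the filter, its log2 difference of 0.74 on the scale of FPKM + 1 had a limma adjusted p of 0.00879, and an exact permutation test gave p = 0.1 (two-sided), the smallest possible.

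*STRL2* (LOC_Os03g15710, chromosome 3), a strictosidine synthase-like protein needed for exine formation, was at 0.437, 0.368, and 0.567 FPKM in the wild type and at 0.215, 0.154, and 0.0348 FPKM in *ssh1*. Every *ssh1* value was below the wild type, and *ssh1* replicate 3 was the lowest. The means were 0.457 ± 0.101 FPKM (SD, n = 3) and 0.135 ± 0.0915 FPKM (SD, n = 3), a ratio of 3.40 of the wild type to *ssh1*. Without the filter, the log2 difference of -0.36 on the scale of FPKM + 1 had a limma adjusted p of 0.0251. The *RAFTIN*-like gene (LOC_Os08g38810, chromosome 8) encodes a BURP domain protein of the kind that is carried from the tapetum to the exine. It was listed at 0.0452, 0, and 0.25 FPKM in the wild type and at 0 in the 3 *ssh1* replicates, so that the groups shared the value 0.

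How many fragments stood behind the low values was estimated from their spacing. After correction for relative depth, the values of a gene with few fragments are whole multiples of a step, the value of 1 fragment. Of the 2342 genes with a mean under 0.3 FPKM that were above 0 in at least 5 libraries, 94.5% had values within 0.1 of a whole number of steps, with the lowest value taken as up to 10 steps. For 6 of the 10 genes such a step was found. The numbers below are the fewest fragments that fit, since the true number could be a multiple of them. They give counting support only and were not tested. *ABCG15* was at 0 in 5 libraries and the *RAFTIN*-like gene in 4, so that neither was of the kind checked above. With a single value above 0, as in *ABCG15*, a step is found in any case.

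*CYP704B2* corresponded to 57, 47, and 64 steps in the wild-type replicates and to 13, 9, and 17 steps in the *ssh1* replicates. A match at numbers this high depends on the depth correction and is less certain than at low numbers. *STRL2* corresponded to 12, 9, and 14 steps against 5, 4, and 1. *CP1* corresponded to 2, 2, and 1 steps against 14, 9, and 10. The direction of these 3 genes thus rested on several fragments in each replicate of the higher genotype, and the wild-type level of *CP1* rested on 5 steps in all. *DPW* corresponded to 17, 10, and 8 steps against 5, 7, and 7, where wild-type replicate 3 was 1 step above 2 of the *ssh1* replicates. The *RAFTIN*-like gene had 1, 0, and 5 steps in the wild type and *ABCG15* a single step in 1 library. A difference between the genotypes in these last 2 genes was not detectable at this depth.

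**Figure D3:**
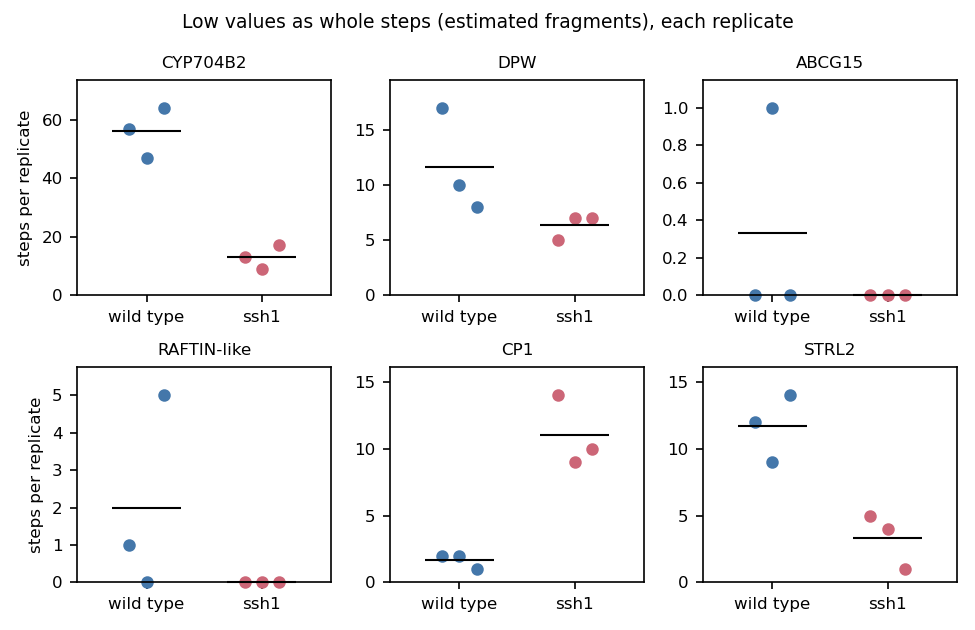
Estimated number of steps (the fewest whole fragments, vertical axes starting at 0) in each wild-type (blue) and *ssh1* (red) replicate for the 6 genes in which a common step was found, with the group mean as a line. *CYP704B2* reached 64 steps in a wild-type library, and *ABCG15* and the *RAFTIN*-like gene had no step in any *ssh1* library. *ABCG15* had a single value above 0, for which a step is found in any case.

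Most other genes of the same program were low as well. Of 14 further genes for sporopollenin synthesis, the pollen wall, and tapetum products, 4 passed the filter. By limma 0 were called at the thresholds in either direction (2 had an unadjusted p below 0.05). At an adjusted p below 0.05, 1 was called lower, beside 5.95% of all tested genes. That gene was *OsAP25* (LOC_Os03g08790), an aspartic protease linked to tapetal cell death, with 72.9, 106, and 92.3 FPKM in the wild type and 21.7, 10.2, and 23.0 FPKM in *ssh1*. The groups were well separated, and limma gave *OsAP25* a log2 fold change of -2.31 (adjusted p = 0.0023, standard error 0.31). Of the 14 genes 8 had a lower mean in *ssh1* and 5 a higher one. The next highest, *OsDEX1* (LOC_Os03g61050), was at 26.9, 27.2, and 28.8 FPKM in the wild type and at 30.1, 29.0, and 30.6 FPKM in *ssh1*, with all *ssh1* values higher. Its log2 fold change was 0.11 (limma adjusted p = 0.199), and 0.24 after median-of-ratios scaling (adjusted p = 0.024). *RTS*, an anther-specific gene, was listed at 0 in all 6 libraries. The median log2 fold change of the 4 tested genes was -0.28 beside -0.14 over all tested genes.

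The regulators of the anther wall and tapetum were used to check for tapetum in these panicles. Of 11 such genes, 5 were tested and 0 were called by limma at the thresholds (4 had an unadjusted p below 0.05). With the adjusted p limit at 0.05, 2 were called lower in *ssh1*, beside 5.95% of all tested genes. *MSP1* (LOC_Os01g68870), the receptor kinase that limits the number of germ cells, was the highest of them, with 44.7, 38.9, and 42.1 FPKM in the wild type and 16.8, 21.4, and 22.6 FPKM in *ssh1* (limma log2 fold change -1.02, standard error 0.12, adjusted p = 0.00146). After median-of-ratios scaling its log2 fold change was -0.89, short of a fold change of 2. The other was *MIL1* (LOC_Os07g05630), a glutaredoxin gene of early anther cells, with a log2 fold change of -1.47 (limma adjusted p = 0.0223, standard error 0.38). It was at 8.36, 10.3, and 9.46 FPKM in the wild type and at 3.34, 1.03, and 4.89 FPKM in *ssh1*, where the replicates were far apart. The levels of the tapetum regulators ranged widely. In the wild type *TIP2* was at 4.75 to 8.91 FPKM, *GAMYB* at 6.28 to 8.77 FPKM, *UDT1* at 4.01 to 4.75 FPKM, and *TDR* at 0.233 to 1.58 FPKM. In *ssh1* they were at 1.87 to 4.33, 5.52 to 6.39, 2.29 to 3.82, and 0.189 to 0.21 FPKM, in the same order. The limma log2 fold change was -0.97 for *TIP2* (adjusted p = 0.0377), -0.21 for *GAMYB* (adjusted p = 0.252), and -0.41 for *UDT1* (adjusted p = 0.0892), and *TDR* was under the filter. *TDF1* was listed at 0 in all libraries, and *EAT1*, *PTC1*, and *MYB80* stayed below 0.5 FPKM in each of them, with *EAT1* highest at 0.474 FPKM in wild-type replicate 3. Of the 11 genes 10, all but *TDF1*, had a lower mean in *ssh1*. In 6 of these 10 all *ssh1* values were below the wild type, beside 27.4% of all genes above 0. Some markers of the tapetum were thus well above 0 in these panicles and others at or near 0.

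Markers of other tissues were examined in the same way. All 5 stamen identity genes had a lower mean in *ssh1*, and in 4 of them all *ssh1* values were below the wild type. The share was 27.4% over all genes above 0, which include genes under the filter, whereas all 5 stamen genes were tested. By limma 0 of 5 were called at either threshold (4 had an unadjusted p below 0.05). Their summed level was 156 to 189 FPKM in the wild type and 107 to 123 FPKM in *ssh1*, and *OsMADS16* was the highest. The 5 panicle and spikelet genes, of which *OsMADS1* was the highest, summed to 355 to 499 FPKM in the wild type and 237 to 283 FPKM in *ssh1*. The mean was lower in *ssh1* in 4 of them and higher in 1, *FZP*, which was under the filter. In 4 of the 5 all *ssh1* values were below the wild type, beside 27.4% of all genes above 0. Of the 5 genes 3 were tested, and all 3 had a limma unadjusted p below 0.05. Of these, *DL* (log2 fold change -1.30, limma adjusted p = 0.00353) was called lower at an adjusted p below 0.05, beside 5.95% of all tested genes. Of the 8 genes of meiosis and germ cells, *PAIR1* (LOC_Os03g01590) was called lower (limma log2 fold change -1.27, adjusted p = 0.000908), and the other 7 were not called. The share called lower was 1.92% over all tested genes. In 4 of the 8 all *ssh1* values were below the wild type, and 3 of the 8 had a limma unadjusted p below 0.05. The mean was lower in *ssh1* in 5 of the 8 and higher in 3 (*ZEP1*, *DMC1A*, and *DMC1B*, with log2 fold changes of 0.29, 0.24, and 0.22, where the 2 *DMC1* copies are near identical and may share reads), and the groups of *MEL1*, the highest, overlapped. The sum ran from 65.1 to 85.4 FPKM in the wild type and from 50.5 to 65.2 FPKM in *ssh1*, so that the ranges met. After median-of-ratios scaling the limma adjusted p of *PAIR1* was 0.0011, above the limit. All 6 genes of green leaf tissue, of which a light-harvesting gene (LOC_Os09g17740) was the highest, had a higher mean in *ssh1*. In 4 of the 6 all *ssh1* values were above the wild type, beside 15.6% of all genes above 0. By limma 1 was called higher at an adjusted p below 0.05, beside 7.07% of all tested genes (4 had an unadjusted p below 0.05). The leaf sums of 223 to 333 FPKM in the wild type and 267 to 580 FPKM in *ssh1* overlapped. None of these lists had a defining gene at 0 in all libraries. The part of these tissues in the levels of the 10 genes was not tested.

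**Figure D4:**
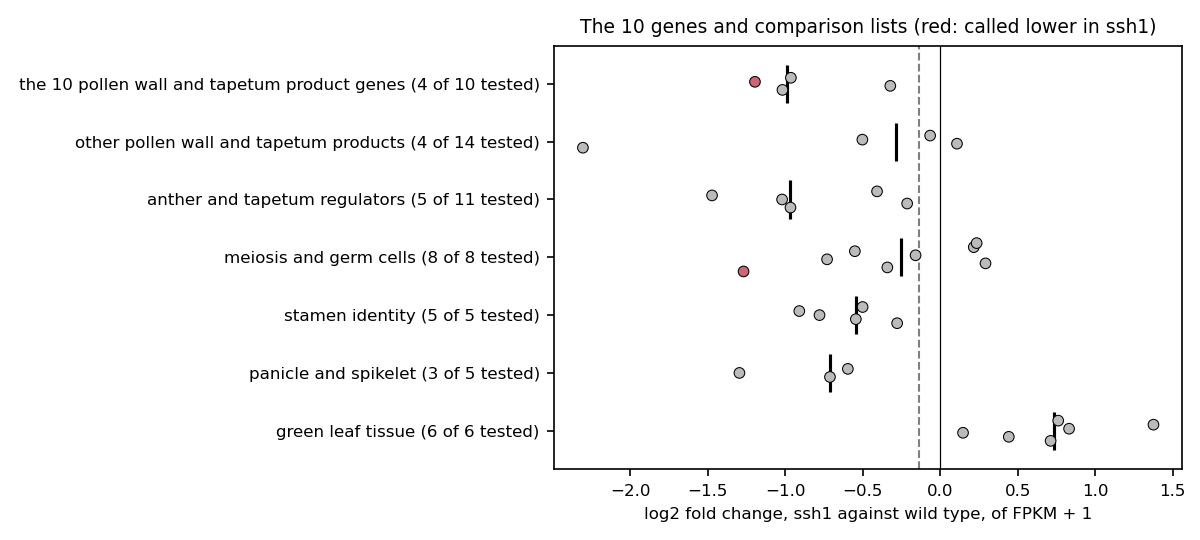
Log2 fold change of FPKM + 1 in *ssh1* against the wild type (horizontal axis) of each tested gene in the 10 pollen wall and tapetum product genes and 6 comparison lists (rows). Points are genes, red where called lower, black bars are the medians of the tested genes of a list, and the dashed line is the median of all 18537 tested genes (-0.14). The tested stamen and spikelet genes lie left of that line and the green leaf genes right of 0.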

How the data were processed

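RNA-seq was done on 0- to 4-cm panicles, with 3 libraries of 5 pooled plants per genotype. The authors mapped the reads with TopHat2 at default parameters to Nipponbare IRGSP-1.0 (MSU7) and deposited FPKM per gene and replicate from Cuffdiff. Tool versions and read filters are not given in the sources used here. Strand was not stated, so antisense reads may add to a gene. Cuffdiff's test needs the reads, so log2(FPKM + 1) was fitted with limma 3.58.1 in R 4.3.3 (mean-variance trend, genotype only, Benjamini-Hochberg adjustment over the 18537 genes averaging 1 FPKM or more), after 4 repeated locus IDs were left out. The script was tested on simulated data. Figures were drawn with matplotlib 3.10.9.

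The members and lists were chosen with earlier results of these data known. Named genes were the 10 members and, of each list, its highest gene and those called. *DL*, *FZP*, *MIL1*, *RTS*, *OsDEX1*, *ZEP1*, *DMC1A*, *DMC1B*, and tapetum regulators other than *MSP1* were named after their values were seen. Steps were examined after seeing the data: relative depth was the mode of ratios between libraries of values under 0.3 FPKM. Of 60 listed locus IDs 59 matched. Nothing in the labels pairs same-numbered replicates. Other pseudocounts, filters, scalings, thresholds, a robust fit, a block, and each library left out were tried.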

Additional observations from a re-analysis of the deposited data

How the results depend on the processing

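All 9 genes with a value above 0 kept their direction under every setting that gave them a value, except *ABCG15*, whose difference was 0.00 without wild-type replicate 2. The count of the 10 genes called, all lower in *ssh1*, was 1. It was 2 at an adjusted p below 0.05, 0 with the replicate block, 2 with the block and an adjusted p below 0.05 (added after seeing the data), and 0 to 1 with 1 library left out. Genes called among all tested numbered 947 (591 higher, 356 lower). There were 487 (338, 149) without the filter, 2413 (1310, 1103) at an adjusted p below 0.05, 2345 (1499, 846) with median-of-ratios scaling added to that limit after seeing the data, 0 (0, 0) with the replicate block (limma; 2541 reached the fold change at an unadjusted p below 0.05), 2286 (1255, 1031) with the block and an adjusted p below 0.05, and 66 to 790 (57 to 517, 9 to 274) with 1 library left out. Fits with fewer libraries or a block have fewer residual degrees of freedom. Same-numbered replicates did not deviate together (correlations across genes of -0.10, -0.07, and -0.17). With 0.1 FPKM added, the log2 differences of the low genes grew, to 2.07 for *CP1* and -1.32 for *STRL2*. The cause of the changes in these counts was not tested.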
